A study of Mus musculus with 61 samples.

Results

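Single granulosa cells from mice given doxorubicin were compared with single granulosa cells from mice given solvent. The cells were taken from the count table by the sample names, which gave 13 doxorubicin and 16 control granulosa cells, or 29 of the 61 cells in the table. Both groups came from ovaries of wild-type mice of the outbred CD-1 stock at postnatal day 5, and cells were collected 6 h after an injection into the peritoneal cavity. The control group received the solvent, and the other group received doxorubicin at a dose written as 10 with the unit mg/kb, so the amount per body weight is not known. The other cells of the table were 16 control and 16 doxorubicin oocytes, which are used here only to set oocyte transcripts apart. The labels tie no cell to an animal, litter or pool, and each group therefore counts as 1 sample, and no difference below was tested. All cells share 1 batch label. How the single cells were isolated is not given in the sources used here.

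Granulosa cells are the somatic cells that enclose each oocyte in a follicle, and they feed the oocyte through contacts and secreted factors. Doxorubicin is an anti-cancer drug that traps topoisomerase II on DNA and breaks the strands. Such breaks activate kinases that stabilise the transcription factor p53. p53 then switches on genes that halt the cell cycle, repair DNA, restrain p53 itself or start cell death. p53 binds paired copies of a short DNA decamer (purines, then C, a pair of A or T bases, G, then pyrimidines), and its activity is usually read from the transcripts of those target genes.

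The promoters of 4 p53 targets followed below are shown because each holds a p53 decamer. They come from RefSeq on GRCm38.p6, the same assembly as the mm10 named in the submitters' processing notes. Each run is the 250 bases before a transcript start, read towards the gene, with the decamer in capitals.
Cdkn1a, chr17:29090729-29090978, + strand: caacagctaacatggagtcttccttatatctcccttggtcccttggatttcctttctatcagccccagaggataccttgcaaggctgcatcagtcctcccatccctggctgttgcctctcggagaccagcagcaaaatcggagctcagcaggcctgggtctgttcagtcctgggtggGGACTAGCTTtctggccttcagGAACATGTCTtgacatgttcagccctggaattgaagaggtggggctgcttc
Ccng1, chr11:40755287-40755536, - strand: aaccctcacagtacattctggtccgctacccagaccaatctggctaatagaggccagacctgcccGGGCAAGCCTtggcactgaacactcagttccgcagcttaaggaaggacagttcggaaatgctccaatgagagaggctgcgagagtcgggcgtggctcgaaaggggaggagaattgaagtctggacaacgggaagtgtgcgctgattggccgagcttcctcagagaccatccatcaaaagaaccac
Mdm2, chr10:117710759-117711008, - strand: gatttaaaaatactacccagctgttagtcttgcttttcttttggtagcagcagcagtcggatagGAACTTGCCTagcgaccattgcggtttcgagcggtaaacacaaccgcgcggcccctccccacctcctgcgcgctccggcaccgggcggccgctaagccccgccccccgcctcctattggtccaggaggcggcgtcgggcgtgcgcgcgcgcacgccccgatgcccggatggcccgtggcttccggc
Bax, chr7:45466899-45467148, - strand: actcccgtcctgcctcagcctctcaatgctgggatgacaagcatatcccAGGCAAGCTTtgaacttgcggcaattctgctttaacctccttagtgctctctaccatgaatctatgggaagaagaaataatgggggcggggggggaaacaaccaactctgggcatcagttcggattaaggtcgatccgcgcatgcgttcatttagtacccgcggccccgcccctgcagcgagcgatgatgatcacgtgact
The Cdkn1a window lies before an upstream transcript start of that gene and holds 2 decamers, which begin 73 and 51 bases before the start. The decamers of Ccng1, Mdm2 and Bax begin 185, 186 and 201 bases before their starts. The decamer reads the same on both strands, so 1 search covered both. In windows of 300 bases (250 before and 50 after each start) it occurred in 8.36% of all 32851 windows and in at least 1 window of 8.43% of the 9355 measured genes that had one. Of the 41 listed p53 targets with a window, 13 held it (31.7%). It was found in 8 of 17 targets called higher after doxorubicin (47.1%) and in 5 of 24 other targets (20.8%). A match describes these letters only and does not show that p53 was bound.

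The unit CPM is a gene's count divided by the library total and multiplied by 1000000. The main measure was the log2 ratio of CPM summed over the cells of a group, doxorubicin over control. Its 95% interval covers counting error only and leaves out the spread between cells and animals. Amplified reads without molecular identifiers are not independent molecules. A gene was detected in a cell with at least 5 counts after that cell was thinned to 1000000 counts. A gene counted as measured if the summed level of one of the groups reached 5 CPM. A gene was called higher or lower when its summed CPM differed at least 2-fold and the cells' median log2(CPM + 1) differed by at least 1 in the same direction. Genes whose summed CPM in control oocytes was at least 10 times that in control granulosa cells are called oocyte-enriched and counted apart. This split uses the control granulosa level, which is also the denominator of the ratio, so values in that set are a description. Genes of that set with under 5 CPM in control granulosa cells count as measured only if the doxorubicin group reaches 5 CPM. For those genes a higher ratio is fixed in advance. Levels are per library and not per transcript length, so they are compared between groups and not between genes.

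Library totals lay between 6834590 and 13403800 counts in control and between 9144920 and 13195200 in doxorubicin granulosa cells. A median of 7306 genes in control and 7211 in doxorubicin cells had a count after thinning, with ranges of 4147 to 9067 and 4780 to 10777. No 2 cells of a group agreed within sampling noise. The granulosa identity of the libraries was mixed. Summed CPM of 31 granulosa markers had a median of 6584 in control cells (1074 to 17280) and 3882 in doxorubicin cells (1187 to 12824). For 24 oocyte markers the summed CPM was 641 to 19901 in control cells, with a median of 2306, and 624 to 49488 in doxorubicin cells, with a median of 10702. The granulosa sum exceeded the oocyte sum in 11 of 16 control cells and in only 5 of 13 doxorubicin cells, which were cells 8, 13, 14, 15 and 16. The larger oocyte marker sums moved with the drug group, so calls that were lost in these 11 and 5 cells are stated below, with the larger moves of a ratio. Over all cells, stroma markers had a higher sum than granulosa markers in control cells 2, 8, 13, 14 and 16 and in doxorubicin cells 1, 6 and 13. This was so in 1 of those 11 and 1 of those 5 cells. Within the remaining 10 and 4 cells the values are given as the strictest set. Both sets are part of the same cells, so a call kept there is not independent support. The part that oocyte or stroma transcripts have in the differences was not tested.

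**Figure D1:**
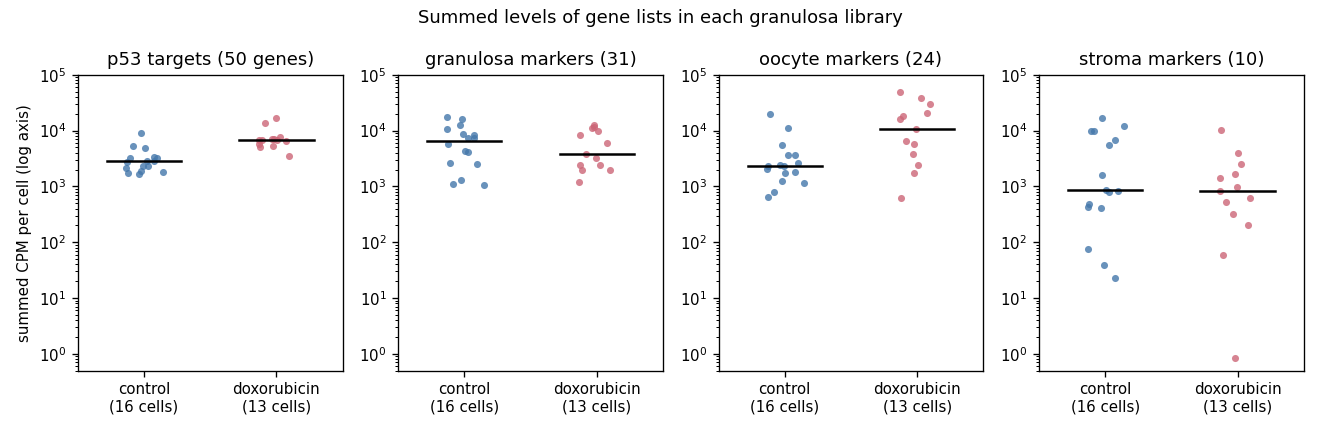
Summed CPM of 4 gene lists in each granulosa library, on a log axis. Points are single cells and bars are medians over 16 control and 13 doxorubicin cells. The p53 target sum has a median of 2820 CPM in control and 6730 CPM in doxorubicin cells, and the oocyte marker sum spans 624 to 49488 CPM in doxorubicin cells.

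Across the transcriptome, similar numbers of genes were higher and lower after doxorubicin once oocyte-enriched genes were set apart. Of 11424 measured genes that were not oocyte-enriched, 627 were called higher (5.49%) and 672 were called lower (5.88%). Of 755 oocyte-enriched genes, 95 were called higher (12.6%) and 0 were called lower (0%). With no p-value possible, the rule on summed CPM alone put 14 oocyte-enriched genes lower (1.85%), and the rule on medians alone put 2 lower (0.265%). Over all 12179 measured genes, 722 were called higher (5.93%) and 672 lower (5.52%). The middle 50% of the log2 ratios of genes that were not oocyte-enriched lay between -0.82 and 0.59, with a median of -0.11. The oocyte-enriched genes had a median of 6.13, and their summed CPM was at least 2-fold higher in 92.2% of cases, but the median over cells was 2-fold higher in only 13.5%. The 5 CPM limit sets part of this direction in advance, so the shares of this set cannot be compared with those of other genes.

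Summed counts and the typical cell often told different things. Of 1813 genes outside the oocyte-enriched set with a 2-fold higher summed CPM, 627 (34.6%) were also 2-fold higher by the cells' medians, and for 722 (39.8%) the median was equal or lower. In 817 of the 1813 (45.1%) a single doxorubicin cell held at least 50% of the group's counts. Of 2420 genes with a 2-fold lower summed CPM, 672 (27.8%) were also lower by medians, and 1317 (54.4%) were not lower by medians at all. A single control cell held at least 50% of the control counts in 1037 of these (42.9%).

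**Figure D2:**
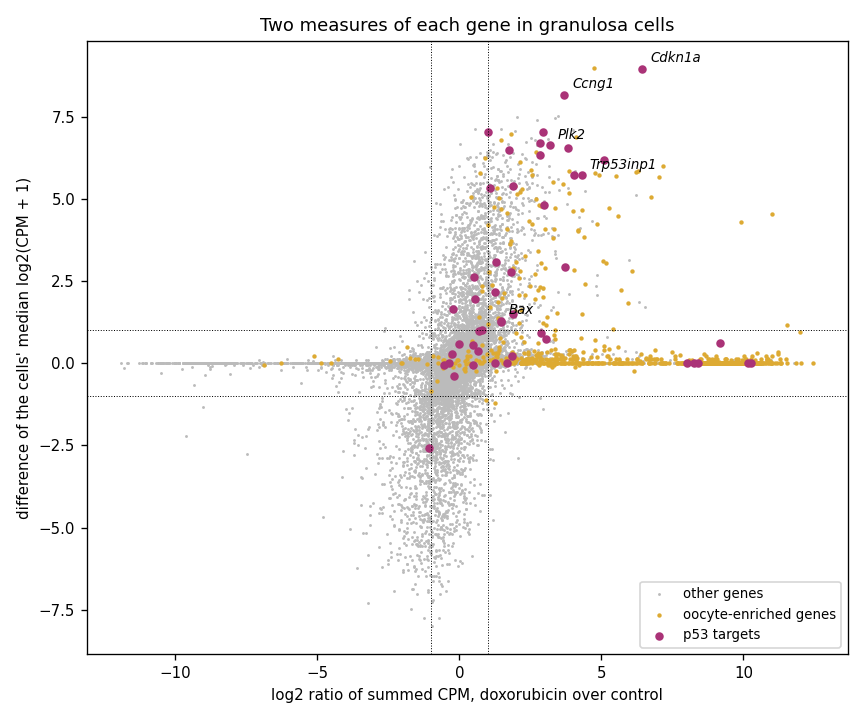
Each of 12179 measured genes by the log2 ratio of summed CPM (x axis) and by how far the group medians of log2(CPM + 1) lay apart (y axis), doxorubicin over control, with dotted lines at -1 and 1. Most oocyte-enriched genes lie far to the right at a median difference near 0, while Cdkn1a, Ccng1, Plk2 and Trp53inp1 are high on both axes.

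Many targets of p53 were higher after doxorubicin. Of 50 listed targets, 47 were measured, 21 were called higher (44.7%, beside 5.93% of all measured genes) and 1 was called lower. Their median log2 ratio was 1.81, beside -0.03 for all measured genes, and 40 of 47 had a ratio above 0. The median of their differences in cell medians was 1.30. For targets under 5 CPM in control cells, such as Pmaip1 and Bbc3, the 5 CPM limit fixes a higher ratio in advance. Of the 47 targets, 3 belong to the oocyte-enriched set. The list was chosen with earlier results of these data known, so these values are a description. A control cell had 7 to 23 of the 50 targets detected, with a median of 17, and a doxorubicin cell had 15 to 40, with a median of 29. Of 13 doxorubicin cells, 10 had more targets detected than any control cell. By the summed CPM of the targets, only 2 of 13 exceeded the highest control cell, which was control cell 13 at 8896 CPM. That cell had 16944 CPM of stroma markers and 1326 CPM of granulosa markers. The next highest control cell, cell 2, was at 5191 CPM, beside a median of 6730 CPM over doxorubicin cells. Within the 11 and 5 cells with more granulosa than oocyte markers, 21 of 45 measured targets were called higher, beside 9.33% of all genes measured there, and the list's median was 1.44. Of the 21 targets called over all cells, 15 were also called in this set, and 17 in the strictest set.

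Cdkn1a, which encodes the cyclin-dependent kinase inhibitor p21, had the largest difference in detection of all genes outside the oocyte-enriched set that were called higher and carry a gene name. Control cells ranged from 0.08 to 126 CPM with a median of 0.31, and doxorubicin cells ranged from 0.58 to 4606 CPM with a median of 649. The summed CPM was 13.5 in control and 1161 in doxorubicin cells, a log2 ratio of 6.42 (interval 6.36 to 6.48). It was detected in 2 of 16 control cells (12.5%, exact binomial interval 1.55% to 38.3%) and in 12 of 13 doxorubicin cells (92.3%, 64.0% to 99.8%). Of the doxorubicin cells, 11 lay above every control cell, and the groups overlapped through doxorubicin cells 1 and 4 at 7.89 and 0.58 CPM. These cells had oocyte marker sums of 49488 and 29824 CPM, while doxorubicin cell 6, with a sum of 38276 CPM, had 2077 CPM of Cdkn1a. After thinning, doxorubicin cells 1 and 4 had 4780 and 5144 genes with a count. Doxorubicin cell 6 had 6786, and the median over doxorubicin cells was 7211. The part of the oocyte transcripts or of the gene number in the low Cdkn1a values was not tested. The ratio of Cdkn1a was 5.97 without doxorubicin cell 9 and 7.62 without control cell 5. In oocytes the summed level was 15.7 CPM in controls and 130 CPM after the drug. Within the 11 and 5 cells the ratio was 5.07.

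Among the targets that feed back on p53, 5 of 7 measured genes were called higher (71.4%, beside 5.93% of all measured genes). Ccng1 encodes cyclin G1, which recruits a phosphatase to Mdm2. It ranged from 0 to 229 CPM in control cells (median 0.29) and from 0.49 to 852 CPM in doxorubicin cells (median 372), was detected in 5 of 16 and 12 of 13 cells, and had a log2 ratio of 3.70, or 4.94 without control cell 13. Trp53inp1, whose product promotes p53 phosphorylation and autophagy, ranged from 0 to 35.9 CPM in control cells (median 0.55) and from 0.83 to 387 CPM in doxorubicin cells (median 80.6). It was also detected in 5 of 16 and 12 of 13 cells, and its ratio of 4.30 was 4.90 without control cell 11. For each of these genes, 8 of 13 doxorubicin cells were above every control cell.

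Mdm2, the ubiquitin ligase that degrades p53, was already detected in 14 of 16 control cells. It went from a cell median of 92.2 to 215 CPM, with a log2 ratio of 1.47, and 6 of 13 doxorubicin cells exceeded the highest control cell at 221 CPM. Ppm1d, the phosphatase that dampens the damage response, and Cop1, another p53 ubiquitin ligase, had ratios of 1.08 and 1.27. Without doxorubicin cell 1 these were 0.72 and 0.88, which are under 2-fold, and without control cell 12 that of Cop1 was 1.83. Neither was called in the 11 and 5 cells. Zmat3, an RNA-binding protein, had a ratio of 2.86 but was detected in only 2 of 16 and 5 of 13 cells. Rchy1, a further ubiquitin ligase, had a ratio of -0.20.

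**Figure D3:**
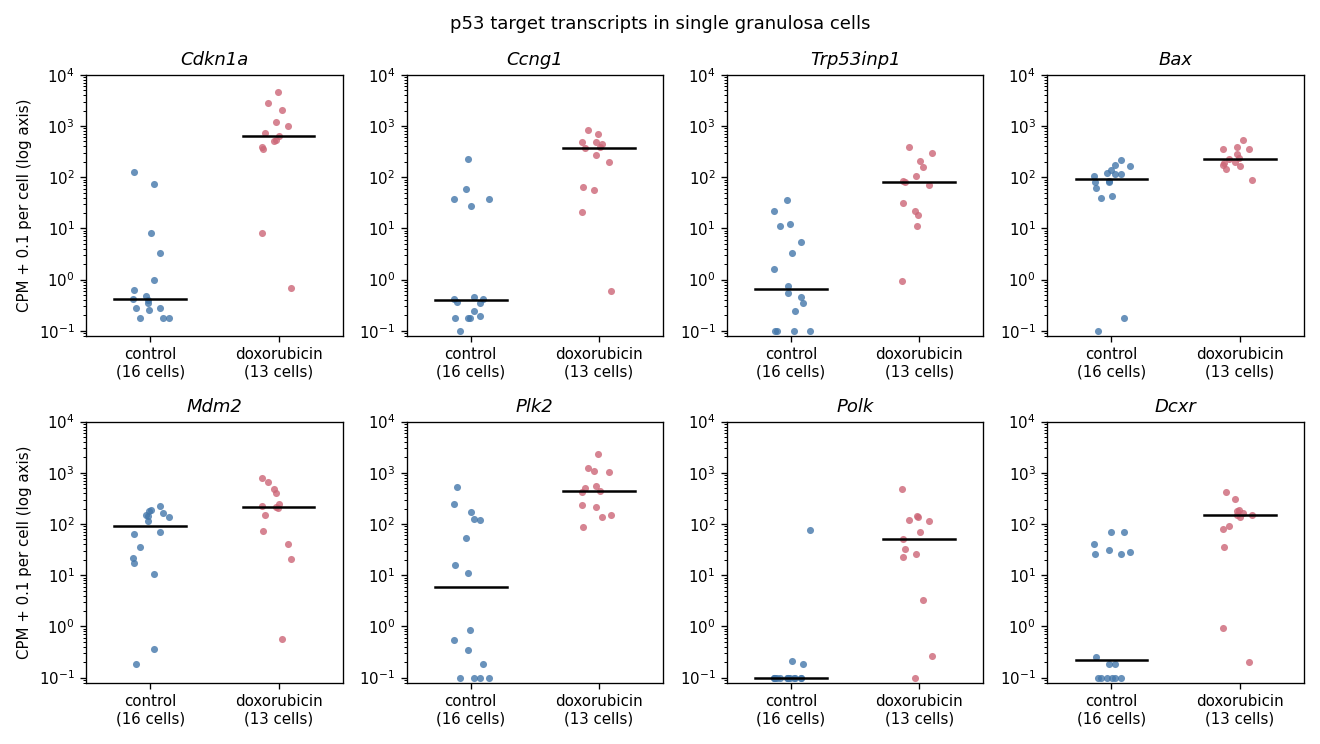
CPM + 0.1 of 8 p53 targets in each granulosa cell, on a log axis. Points are single cells and bars are medians over 16 control and 13 doxorubicin cells. Cdkn1a is above every control cell in 11 of 13 doxorubicin cells and Dcxr in 10 of 13, while Mdm2 and Bax were already present in 14 of 16 control cells.

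Among the 12 measured targets that act in arrest and stress control, 5 were called higher (41.7%) and 1 lower (8.33%). Of all measured genes, 5.93% and 5.52% were. Plk2, a polo-like kinase, was detected in 8 of 16 control and 13 of 13 doxorubicin cells. Control cells had a median of 5.74 CPM (0 to 523) and doxorubicin cells one of 446 CPM (88.4 to 2307), with a ratio of 3.18 that was 3.96 without control cell 8. Phlda3, an inhibitor of Akt, was detected in 4 of 16 and 10 of 13 cells with a ratio of 2.85, or 3.77 without control cell 13. Sesn2, a sestrin that restrains mTORC1, had a ratio of 1.74 over all cells and 2.39 without control cell 8. Ckap2, a spindle protein, had a ratio of 1.28 over all cells and 0.89 without doxorubicin cell 2. Cdkn2aip, a regulator of the p53 pathway, was the target called lower, at -1.08, and at -0.88 without control cell 13. It was not called in the 11 and 5 cells, at -0.86, or in the strictest set, at -0.87. Btg2, an antiproliferative gene, was detected in every cell of both groups, with medians of 569 and 696 CPM and a ratio of -0.27. Its highest control value was 6656 CPM. Gdf15, a secreted stress factor, reached 220.5 CPM in doxorubicin cell 8, and that cell held nearly all of its counts.

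Of 13 measured death genes, 5 were called higher (38.5%) and 0 lower, beside 5.93% and 5.52% of all measured genes. Bax, whose product opens the outer mitochondrial membrane, was present in most control cells. It ranged from 0 to 212 CPM in control cells (median 93.5) and from 87.7 to 525 CPM in doxorubicin cells (median 230), with a ratio of 1.45 (1.43 to 1.48). Detection was 14 of 16 and 13 of 13 cells, and 7 of 13 doxorubicin cells were above the highest control cell. Over leaving out each cell the ratio stayed between 1.32 and 1.58. In the 11 and 5 cells it was 1.32, but the difference of medians was 0.91, under the limit for a call. The strictest set, of 10 and 4 cells, gave 1.31 and 1.11, which is a call. Rps27l, a ribosomal protein paralog with reads that may be shared with Rps27, was detected in all 29 cells with a ratio of 0.78.

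The other called death genes were rarer in control cells. Aen, an apoptosis-enhancing nuclease, had cell medians of 0.08 and 100 CPM and a ratio of 3.84. Control cell 3 held 97.9% of its control counts, and without it the ratio was 9.33. Apaf1, the scaffold of the apoptosome, had a ratio of 3.72. Doxorubicin cell 1 held 75.4% of its doxorubicin counts, and without it the ratio was 1.80, while without control cell 11 it was 5.92. Eda2r, a receptor of the tumour necrosis factor family, went from 8.50 to 67.6 CPM with a ratio of 2.99, or 7.60 without control cell 2. Tnfrsf10b, the death receptor for TRAIL, had 6.30 CPM in control and 23.6 CPM in doxorubicin cells. Its ratio was 1.90, or 1.35 without doxorubicin cell 7 and 3.67 without control cell 11. In the 11 and 5 cells Tnfrsf10b was not called, with a median difference of 0.42, while Aen and Apaf1 were called with ratios of 8.71 and 1.49. Tnfrsf10b was called in the strictest set, at 1.95.

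The BH3-only genes were not called. Pmaip1, which encodes Noxa, had 0.08 CPM in control and 48.6 CPM in doxorubicin cells, but doxorubicin cell 6 held 77.4% of it and the cells' medians differed by only 0.60. Bbc3, which encodes Puma, went from 3.31 to 11.95 CPM with a median difference of 0.23, and Bid had a ratio of 0.46. Fas, a death receptor, was detected in 1 of 16 and 4 of 13 cells. Perp, a membrane protein of p53-dependent death, had a ratio of -0.54. Within the 11 and 5 cells Pmaip1 and Bid were called higher, at 6.79 and 1.30, and Bbc3 and Fas were not. Bbc3 was called in the strictest set, at 5.69.

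Of 15 measured targets in repair and metabolism, 6 were called higher and 0 lower, beside 5.93% and 5.52% of all measured genes. Dcxr, a carbonyl and sugar reductase, had the most doxorubicin cells above every control cell among the 6. It ranged from 0 to 69.8 CPM in control cells (median 0.12) and from 0.10 to 422 CPM in doxorubicin cells (median 147), and 10 of 13 doxorubicin cells exceeded the highest control cell. Its ratio of 2.94 stayed between 2.74 and 3.27 over leaving out each cell. Polk, the translesion polymerase kappa, was detected in 1 of 16 control and 10 of 13 doxorubicin cells. Its ratio of 4.04 was 12.26 without control cell 16, which held 99.8% of the control counts, so 12.26 rests on the few counts left. Slc19a2, a thiamine transporter, had a ratio of 2.84 over all cells and 4.24 without control cell 10.

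Ddb2 and Xpc, both damage sensors of nucleotide excision repair, had ratios of 1.89 and 1.81. Without control cell 5 the ratio of Ddb2 was 2.48. Without doxorubicin cell 4 the ratio of Xpc was 1.14, and without control cell 3 it was 2.40. Among the 11 and 5 cells neither was called, and the ratio of Ddb2 was -0.94. Mvp, the major vault protein, had a ratio of 5.09 but belongs to the oocyte-enriched set, with 595 CPM in control oocytes, and its ratio was 7.14 without control cell 15 and 4.44 without doxorubicin cell 4. With only the 11 and 5 cells Mvp and Slc19a2 were called with ratios of 2.44 and 1.44, and Polk with 11.11. The control level of Polk there was 0.008 CPM, under the floor of 3 counts, so 11.11 is a bound. Pcna, the sliding clamp, had a ratio of -0.24, although control cells had a median of 52.3 CPM, doxorubicin cells had one of 166 CPM, and all 13 doxorubicin cells were above the control median.

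Some genes were found in most cells of 1 group and few of the other. Besides Cdkn1a, Polk, Ccng1 and Trp53inp1, the named genes with the largest gain in detection were Ctu2, Ccdc136, Mybl1, Zfp787, Bmt2 and Rxrb. Mybl1, a transcription factor best known from germ cells in meiosis, was detected in 0 of 16 control cells, which allows a share of up to 18.8%, and in 8 of 13 doxorubicin cells. Its highest control value was 2.60 CPM, and the 8 doxorubicin cells that exceeded it reached 91.5 CPM. Control and doxorubicin oocytes had 2.18 and 2.79 CPM of Mybl1. Its ratio of 5.96 was 7.07 without control cell 4. Ccdc136 was detected in 1 of 16 and 9 of 13 cells, with a ratio of 3.17 that was 12.27 without control cell 16 and 2.42 without doxorubicin cell 4. Zfp787, a zinc finger protein, was detected in 4 of 16 and 11 of 13 cells with a ratio of 1.76. Ctu2, which acts in thiolation of transfer RNA, was detected in 3 of 16 and 11 of 13 cells, with a ratio of 2.31 that was 3.81 without control cell 14. Bmt2, a sensor of S-adenosylmethionine, was detected in 3 of 16 and 10 of 13 cells, with a ratio of 3.06 that was 3.69 without control cell 11. Rxrb, a retinoid X receptor, was detected in 2 of 16 and 9 of 13 cells. Its ratio of 1.24 was 0.87 without doxorubicin cell 6 and 3.27 without control cell 13. All 10 genes of this group were also called higher in the 11 and 5 cells and in the strictest set. Of all genes measured in those sets, 9.33% and 11.9% were called higher. In the 11 and 5 cells the ratios of Trp53inp1, Mybl1, Zfp787 and Bmt2 were smaller, at 3.06, 3.90, 1.15 and 1.97. Those of Ccng1, Ctu2, Ccdc136 and Rxrb were larger, at 4.54, 4.17, 11.39 and 2.76. The control level of Ccdc136 there was 0.016 CPM, under the floor of 3 counts, so 11.39 is a bound.

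Genes found in fewer doxorubicin cells included Pdlim1, Epn2, Eva1b, Rabl2, Pdpk1, Arsk, Cmbl, Ubald2 and Cep63. Pdlim1, an adaptor on actin stress fibres, was detected in 14 of 16 control cells (median 166 CPM, 0 to 410) and in 3 of 13 doxorubicin cells (median 0.08 CPM, 0 to 133). All 13 doxorubicin cells were under the control median, and the ratio of -3.21 was -4.03 without doxorubicin cell 15. Epn2, an endocytic epsin, was detected in 14 of 16 and 4 of 13 cells with a ratio of -3.59, or -5.29 without doxorubicin cell 15. Pdpk1, the kinase that activates Akt, was detected in 11 of 16 and 1 of 13 cells with a ratio of -3.46, or -6.48 without doxorubicin cell 13. Rabl2, a small GTPase of cilia, was detected in 12 of 16 and 1 of 13 cells with a ratio of -3.31, or -7.18 without doxorubicin cell 16. Arsk, a lysosomal sulfatase, was detected in 10 of 16 and 1 of 13 cells with a ratio of -4.79, or -11.39 without doxorubicin cell 13. Eva1b was detected in 15 of 16 and 5 of 13 cells and Cmbl, a hydrolase, in 12 of 16 and 3 of 13. Their ratios of -2.45 and -2.20 were -3.19 without doxorubicin cell 13 and -3.85 without doxorubicin cell 7. Of the 10 genes in this group, 8 were also called lower in the 11 and 5 cells, beside 7.01% of all genes measured there. There the ratios of Pdlim1, Epn2, Pdpk1, Rabl2, Arsk and Eva1b were -1.68, -2.55, -2.41, -2.38, -2.03 and -1.42, and that of Cmbl was -9.34. Cep63, a centrosomal protein, was not, with a ratio of 0.01 there, and its ratio of -1.65 over all cells was -3.12 without doxorubicin cell 8. Ubald2 was not either, and its ratio of -1.45 was -2.36 without doxorubicin cell 16.

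**Figure D4:**
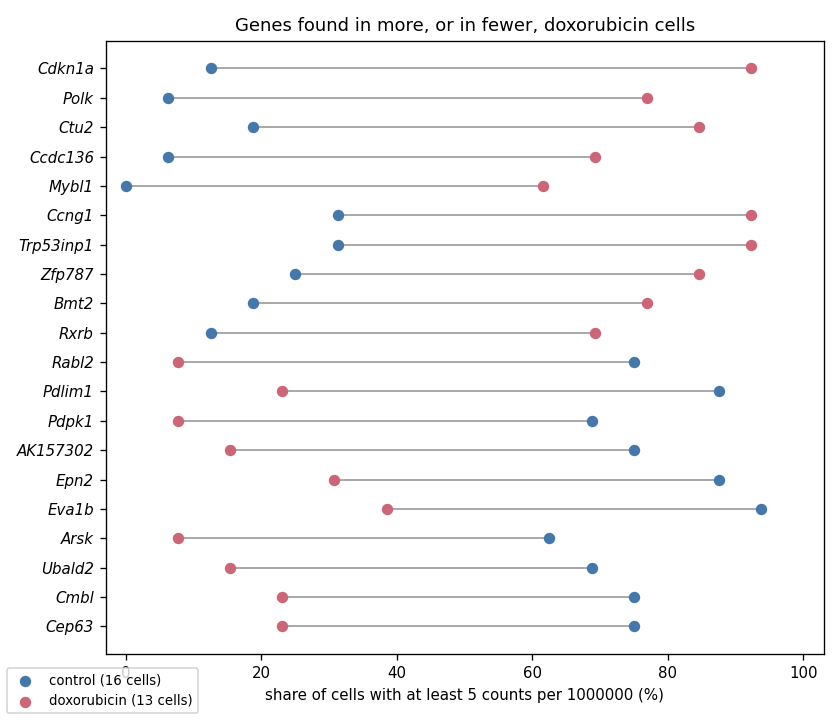
Share of cells with at least 5 counts per 1000000 for the 10 named genes with the largest gain in detection and the 10 with the largest loss. Blue points are control cells (16) and red points are doxorubicin cells (13). Cdkn1a goes from 12.5% to 92.3%, Mybl1 from 0% to 61.5% and Pdlim1 from 87.5% to 23.1%.

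Genes present in at least 75% of the cells of both groups could be compared by level. The named genes with the largest higher medians were Dppa5a, Ooep, Gtsf1, Mbnl2, Siva1, Ggct, Tulp4 and Zbed3. Dppa5a, Ooep, Gtsf1 and Zbed3 are known from germ cells and early embryos, and control oocytes had 3.36, 3.16, 6.03 and 7.15 times the control granulosa level, under the 10-fold limit of the oocyte-enriched set. The ratios of Dppa5a, Ooep and Gtsf1 were 2.07, 1.68 and 1.42, and they were 2.77, 2.49 and 2.40 without control cell 8, which had the highest oocyte marker sum of the control cells. The ratio of Mbnl2, a splicing regulator, was 1.09, and it was 0.90 without doxorubicin cell 7. Siva1, a mediator of apoptosis, ranged from 0.34 to 294 CPM in control cells (median 113) and from 106 to 870 CPM in doxorubicin cells (median 391). Of 13 doxorubicin cells, 8 exceeded the highest control cell, and the ratio of 1.54 stayed between 1.40 and 1.66 over leaving out each cell. Among the 11 and 5 cells none of these 8 genes was called higher, beside 9.33% of all genes measured there. Siva1 had a ratio of 0.94 there with a median difference of 1.46. In the strictest set Siva1 was called.

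Lower levels were seen for Rpl26, Tpm3-rs7, Commd7, Hnrnpdl, Hnrnpr, Acat1, Strn3 and Itgav. Rpl26, a protein of the large ribosomal subunit that is also known to bind p53 mRNA, was detected in 16 of 16 and 12 of 13 cells. It ranged from 37.9 to 499 CPM in control cells (median 224) and from 4.06 to 122 CPM in doxorubicin cells (median 10.1). All 13 doxorubicin cells were under the control median, and the ratio of -3.15 (-3.20 to -3.10) was -3.74 without doxorubicin cell 16. It was the only one of 55 ribosomal protein genes called in either direction, and the 55 had a median ratio of -0.13. Rpl26 was also called lower in the 11 and 5 cells, at -2.34, and in the strictest set. Oocytes had 156 CPM in control and 63.8 CPM after doxorubicin. Rpl26 has near-identical copies in the genome, so its value depends on how reads were assigned.

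Hnrnpdl and Hnrnpr, which bind RNA, had ratios of -1.38 and -1.26. Strn3, a striatin, had a ratio of -1.83. All 13 doxorubicin cells were under the control median for Hnrnpdl, Strn3 and Tpm3-rs7, while 11 of 13 were for Hnrnpr. Acat1, a mitochondrial thiolase, and Itgav, the integrin alpha V chain, had ratios of -1.26 and -1.21, and that of Itgav was -0.97 without control cell 10. Commd7 had a ratio of -1.12 over all cells and -0.99 without control cell 13. Tpm3-rs7 is a sequence related to a tropomyosin gene, so reads may be shared with it. With only the 11 and 5 cells 3 of these 8 genes were called lower, namely Rpl26, Hnrnpdl and Acat1, beside 7.01% of all genes measured there.

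Most oocyte markers were higher in the doxorubicin granulosa libraries, and to very different degrees by gene. Of 22 measured oocyte markers, 16 were called higher (72.7%, beside 5.93% of all measured genes) and 0 lower, with a median ratio of 2.02. Of the 22, 14 belong to the oocyte-enriched set, where the direction is partly set in advance. Ddx4 and Lhx8 were under 5 CPM and not measured. Both were lower in the sums, with 1.93 and 1.82 CPM in control and 0.66 and 0.80 CPM in doxorubicin granulosa cells. Summed-CPM and median rules taken singly also put 0 of the measured markers lower. In the 11 and 5 cells 4 of 19 were called higher, beside 9.33% of all genes measured there, with a median of 0.66. Oocyte-enriched genes held between 0.146% and 1.70% of the counts of a control cell and between 1.08% and 7.15% of those of a doxorubicin cell. By this share, 9 of 13 doxorubicin cells exceeded every control cell. The set is defined by a low level in these same control cells, so this difference is partly set in advance and is a description. Gdf9, a growth factor secreted by oocytes, ranged from 0 to 494 CPM in control cells (median 0.72) and from 0.28 to 8052 CPM in doxorubicin cells (median 858). Its ratio of 4.74 was 5.62 without control cell 13 and 2.11 in the 11 and 5 cells, where it was still called.

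Set beside doxorubicin oocytes, the markers did not keep 1 ratio. Ddx4, a germ cell RNA helicase, had 0.66 CPM in doxorubicin granulosa cells and 271 CPM in doxorubicin oocytes, or 0.245% of the oocyte level. Lhx8, an oocyte transcription factor, was at 0.365% and Kit, the receptor for Kit ligand, at 5.09%. Padi6, Zp3 and Ooep were at 25.5%, 52.0% and 90.7%. Gdf9 was at 322%, with 1817 CPM in the granulosa libraries and 564 CPM in the oocytes. Omt2b, Oosp1 and Omt2a were at 325%, 778% and 1326%, all from under 20 CPM in the oocytes. The source of these transcripts was not tested.

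**Figure D5:**
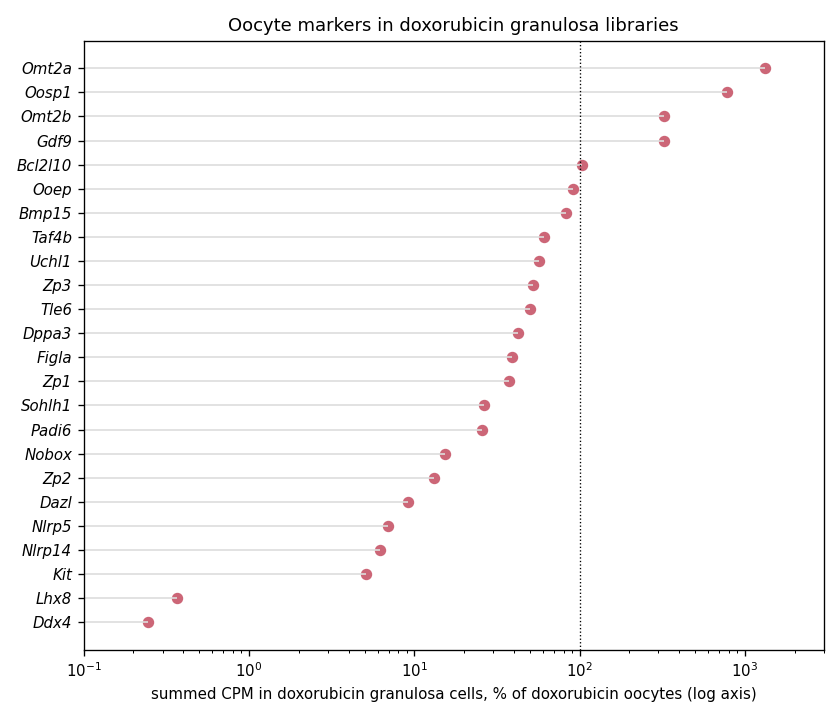
Summed CPM of 24 oocyte markers in doxorubicin granulosa cells as a percentage of doxorubicin oocytes, on a log axis with a dotted line at 100%. Values run from 0.245% for Ddx4 to 1326% for Omt2a, and Gdf9 is at 322%. The median over doxorubicin granulosa cells is only 0.30 CPM for Omt2a and 0.08 CPM for Oosp1.

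The named oocyte-enriched genes with the largest gain in detection were Fbxw15, Efnb2, Tmem150a, Omt2b, Rtp4 and Cpb2. Fbxw15, an F-box protein of a family with many similar copies, was detected in 1 of 16 and 10 of 13 cells, with a ratio of 6.23 that was 7.32 without control cell 13. Efnb2, the ligand ephrin B2, was detected in 0 of 16 control cells, which allows a share of up to 18.8%, and in 9 of 13 doxorubicin cells. It had 26.1 CPM in doxorubicin granulosa cells but only 2.77 and 3.29 CPM in control and doxorubicin oocytes. Its ratio of 6.74 was 8.52 without control cell 5. Rtp4, an interferon-responsive chaperone of receptors, was likewise detected in 0 of 16 and 8 of 13 cells, with 34.4 CPM in doxorubicin granulosa cells and 0.84 and 0.60 CPM in control and doxorubicin oocytes. Control granulosa levels of 0.24 CPM for Efnb2 and 0.01 CPM for Rtp4 (2 counts) put both past the 10-fold limit. Both were also called higher in the 11 and 5 cells, and Tmem150a and Cpb2 were not.

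Granulosa identity genes showed no common direction. Of 29 measured granulosa markers, 3 were called higher and 3 lower (10.3% each, beside 5.93% and 5.52% of all measured genes), with a median ratio of -0.16. Wt1, a transcription factor of the gonadal soma, had a ratio of 1.41, or 1.12 without doxorubicin cell 9, and was not called in the 11 and 5 cells. Rspo1, an activator of Wnt signalling, had a ratio of 1.76 over all cells and 1.03 without doxorubicin cell 9 and 3.15 without control cell 3. Cdh2, or N-cadherin, had a ratio of 1.29 over all cells and 0.91 without doxorubicin cell 12. Hsd17b1, an enzyme of oestradiol synthesis, had cell medians of 84.9 and 0.08 CPM and a ratio of -1.98, which was -4.30 without doxorubicin cell 8, the cell that held 81.9% of the doxorubicin counts. Fst, the activin-binding follistatin, had a ratio of -1.38 over all cells and -1.92 without doxorubicin cell 7. Emx2, a homeobox gene, had a ratio of -2.91 from 10.8 CPM, or -3.79 without doxorubicin cell 4. Among the 11 and 5 cells Cdh2, Emx2 and Fst were not called, at 0.28, -2.70 and -1.22, while Rspo1 and Hsd17b1 were, at 1.51 and -1.07. The markers Foxl2, Amhr2 and Inha had ratios of 0.25, -0.16 and -0.19. Of 14 measured signalling markers, 11 had a ratio below 0 and 3 above, with a median of -0.46. Among the 11 and 5 cells 3 of 29 markers were called higher and 4 lower, with a median of -0.35. The shares of all genes measured there were 9.33% and 7.01%. Wnt4 and Krt18 joined Rspo1 as higher, at 1.93 and 1.74. Kitl, Wnt6 and Fshr joined Hsd17b1 as lower, at -1.30, -1.02 and -2.71.

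Stroma markers were lower in the sums. Of 10, 5 were called lower, beside 5.52% of all measured genes, and 0 higher. Dcn, the matrix proteoglycan decorin, had a ratio of -1.86, and Tcf21, Acta2, Nr2f2 and Mfap4 had ratios of -2.40, -2.40, -1.95 and -1.16. Without control cell 13 the ratios of Tcf21 and Mfap4 were -1.43 and -0.52, and without control cell 16 those of Acta2 and Nr2f2 were -0.95 and -1.31. Without doxorubicin cell 13 those of Dcn, Tcf21 and Mfap4 were -2.78, -3.67 and -2.27. Without doxorubicin cell 6 that of Acta2 was -3.55, and without doxorubicin cell 8 that of Nr2f2 was -4.61. The number of markers called lower was 2 without control cell 13, 3 without control cell 2 or control cell 16, and 8 without doxorubicin cell 13. With only the 11 and 5 cells 1 stroma marker was called higher and 0 lower, beside 9.33% and 7.01% of all genes measured there. The median ratio there was 0.93. In the strictest set 3 were called higher and 1 lower, beside 11.9% and 11.4% of all genes measured there, with a median of 1.22. Haemoglobin genes Hba-a1, Hbb-bs and Hbb-bt were called higher, mainly from doxorubicin cell 15, which had 34796 CPM of blood and immune markers. These genes were 3 of 5 measured blood and immune markers (60%, beside 5.93% of all measured genes). Their ratios of 6.32, 6.202 and 6.52 were 1.28, 2.07 and 3.44 without that cell, and those of Hbb-bs and Hbb-bt were 9.64 and 10.48 without control cell 14. In the 11 and 5 cells, which include doxorubicin cell 15, Hbb-bs was called and Hba-a1 and Hbb-bt were not. The leukocyte markers Ptprc and Lyz2 were at 0 in both groups, and 0 of 3 measured endothelial markers were called. Over all measured genes 5.93% were called higher and 5.52% lower.

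Genes of the cell cycle and of damage signalling were mostly not called. Of 38 cell cycle genes, 0 were called higher and 3 lower (7.89%, beside 5.52% of all measured genes, so near that share), namely the replicative helicase subunits Mcm4 and Mcm6 and the kinase Cdk2, with ratios of -1.18, -1.32 and -1.50. The ratio of Mcm4 was -0.66 without control cell 13 and -1.93 without doxorubicin cell 15. None of these 3 was called in the 11 and 5 cells. Mki67, the proliferation marker, had a ratio of -2.14, but it was detected in 5 of 16 and 4 of 13 cells and its medians differed by -0.07. Of 22 genes of damage signalling and of the drug's targets and handling, 0 were called higher and 2 lower (9.09%, also near the 5.52% of all measured genes). These were Atr, a damage kinase, at -1.86 (-3.58 without doxorubicin cell 8), and Abcg2, a drug efflux pump, at -1.68. In the 11 and 5 cells Abcg2 was called, and Atr was not, at -0.92 there and -0.76 in the strictest set. The p53 gene itself, Trp53, had 236 CPM in control and 195 CPM in doxorubicin cells, a ratio of -0.28, and Top2b, which encodes a topoisomerase that doxorubicin traps, had a ratio of -0.07.

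Of 17 measured BCL2 family and caspase genes outside the p53 list, 2 were called higher (11.8%) and 3 lower (17.6%), beside 5.93% and 5.52% of all measured genes. Casp9, the initiator caspase of the apoptosome, had a ratio of 1.82 with detection in 3 of 16 and 7 of 13 cells, or 3.56 without control cell 6. Casp8, the initiator caspase of death receptors, had a ratio of 1.02 and was at 0.72 without doxorubicin cell 4. Bok, a Bax relative, was detected in 14 of 16 and 6 of 13 cells, with medians of 153 and 0.33 CPM and a ratio of -1.67, or -2.27 without doxorubicin cell 8. Xiap, a caspase inhibitor, and Casp2 had ratios of -1.28 and -1.32, which were -0.59 without control cell 5 and -0.89 without control cell 4. They were -2.26 without doxorubicin cell 15 and -2.04 without doxorubicin cell 16. Of these, Casp9 alone was called in the 11 and 5 cells.

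Immediate early genes, which respond within minutes to growth signals and to handling of tissue, were more often lower than higher. Of 19 measured, 0 were called higher and 5 lower (26.3%, beside 5.52% of all measured genes), and 16 had a ratio below 0, with a median of -0.42. Those called were Atf3, Myc, Dusp1, Nr4a1 and Zfp36, with ratios of -1.39, -1.10, -1.10, -1.39 and -1.01. Dusp1, a phosphatase of MAP kinases, was under the control median in 12 of 13 doxorubicin cells, with medians of 396 and 48.0 CPM. The ratio of Dusp1 was -3.13 without doxorubicin cell 13 and -0.53 without control cell 4. The ratio of Atf3 was 0.03 without control cell 3 and -2.56 without doxorubicin cell 6. The ratio of Nr4a1 was -0.93 without control cell 3 and -2.05 without doxorubicin cell 9. Those of Myc and Zfp36 were -0.88 without control cell 5 and -0.55 without control cell 2. The number called lower was 0 without control cell 4, 2 without control cell 2, and 3 without control cell 3, 5, 10 or 12 or doxorubicin cell 4 or 14. It was 1 in the 11 and 5 cells, beside 7.01% of all genes measured there, and 5 in the strictest set, beside 11.4%. Among the 11 and 5 cells Myc was the one called, and Dusp1 and Nr4a1 were at -0.23 and -0.28. Fos and Egr1, with 4425 and 2371 CPM in control cells, had ratios of -0.44 and -0.21, and Jun had a ratio of 0.46.

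Of 32 stress genes, 1 was called higher (3.12%) and 4 lower (12.5%), beside 5.93% and 5.52% of all measured genes. Gclc, the catalytic subunit of glutathione synthesis, was detected in 4 of 16 and 8 of 13 cells with a ratio of 2.86, or 3.46 without control cell 7, and it was also called in the 11 and 5 cells. Herpud1, which acts in degradation from the endoplasmic reticulum, had a ratio of -1.73 and was under the control median in 11 of 13 doxorubicin cells. Asns, Xbp1 and the heat shock gene Hspa1b had ratios of -1.09, -1.06 and -1.12. These were -0.67 without control cell 7, -0.83 without control cell 13 and -0.72 without control cell 2. With only the 11 and 5 cells Herpud1 and Xbp1 were not called, at -0.72 and 0.05, while Asns and Hspa1b were. The antioxidant Hmox1 had a ratio of 0.62 but a median difference of -1.07.

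Of 18 genes of inflammation and interferon, 1 was called higher (5.56%, beside 5.93% of all measured genes). Icam1, an adhesion molecule, had a ratio of 2.87 with detection in 3 of 16 and 6 of 13 cells, which was 3.85 without control cell 8. Of 20 genes of Notch and BMP signalling, 2 were called higher and 2 lower (10% each, beside 5.93% and 5.52% of all measured genes). Notch1, a receptor for ligands on neighbouring cells, went from 2.19 to 62.1 CPM with a ratio of 4.83, or 3.66 without doxorubicin cell 4. Bmpr1a, a receptor for bone morphogenetic proteins, had a ratio of 1.03 over all cells and 0.82 without doxorubicin cell 8. The Notch mediator Rbpj and the target Heyl had ratios of -1.57 and -1.12, and that of Rbpj was -0.97 without control cell 8 and -2.28 without doxorubicin cell 15. That of Heyl was -0.81 without control cell 16 and -1.77 without doxorubicin cell 12. Notch1, Bmpr1a and Icam1 were also called higher in the 11 and 5 cells and Heyl lower, but Rbpj was not called there, with a ratio of -0.13.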

How the data were processed

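RNA of single cells was amplified with a SMART-seq low-input kit and sequenced in pairs, per the labels' protocols. The authors deposited 1 table of estimated counts, in which 34.0% of nonzero values are not whole numbers. The submitters' processing notes name mm10, Partek, Bowtie2, HISAT2 and DESeq2 with no role or version, and the annotation is not given in the sources used here. The table has 23927 gene rows. In 22 rows the symbol had become a date; these hold 0.144% of the counts, stayed in the totals and were not named. No row names a mitochondrial gene.

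Estimated counts were rounded and summed per group. A group under 3 counts was set to 3, and its ratio is then a bound, also where cells were left out. Ratio intervals are exact conditional binomial (Clopper-Pearson) intervals and shares have exact binomial intervals, all at 95%. The upper limit for 0 cells is 3 cells of the total. No model was fitted, no pairing was used and no doublet caller was run. The calculation was tested on simulated data. Single-gene values are given without a test.

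The members and gene lists were chosen with earlier results of these data known. Named genes were p53 targets, up to 4 list members per role, the 10 called genes with the largest gain and the 10 with the largest loss in detection, 8 and 8 by level among genes detected in at least 75% of the cells of both groups, and up to 6 and 4 oocyte-enriched genes. Predicted gene models were not named in the last 3 groups. Some genes were named beyond this rule after their values were seen, mainly other called list members. The 2 sets of cells with more granulosa markers, other ways of combining cells, edgeR and DESeq2 scaling (factors between 0.987 and 1.01), other filters and leaving out each cell were the alternatives; the strictest set was chosen after seeing the data. Python 3.11.15 (numpy 2.4.6, pandas 2.3.3, scipy 1.17.1, matplotlib 3.10.9) and R 4.3.3 (edgeR 4.0.16, DESeq2 1.42.0) were used.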

Additional observations from a re-analysis of the deposited data

Results flagged for a closer look

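For 9 named genes called in granulosa cells, oocytes had a log2 ratio of doxorubicin over control of at least 1 in the opposite direction, and this difference between the cell types was not tested. Pdlim1 had a ratio of -3.21 in granulosa cells and 2.39 in oocytes, where the level went from 5.50 to 28.9 CPM. Tnfrsf10b had ratios of 1.90 and -1.48, with 4.36 and 1.56 CPM in oocytes. The granulosa markers Emx2, Fst and Hsd17b1 had ratios of -2.91, -1.38 and -1.98 in granulosa cells and 1.01, 2.61 and 1.996 in oocytes. Acta2, a smooth muscle actin listed with the stroma, had ratios of -2.40 and 3.85. Bok had ratios of -1.67 and 1.17, Dusp1 had ratios of -1.10 and 1.99, and Hspa1b had ratios of -1.12 and 1.71. Granulosa marker sums ran from 30.5 to 945 CPM in control oocytes and from 47.5 to 3678 CPM in doxorubicin oocytes, where oocytes 9, 11 and 12 had 3678, 3159 and 2413 CPM. Stroma marker sums reached 1116 CPM in control oocytes and 2194 CPM after doxorubicin. The part of these libraries in the oocyte ratios was not tested.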

How the results depend on the processing

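No paired analysis was possible because the replicate numbers only name single cells, each group counts as 1 sample and no result comes from a test. Leaving out each cell in turn gave 577 to 738 genes called higher and 603 to 810 called lower outside the oocyte-enriched set, 91 to 123 higher and 0 to 1 lower within it, 19 to 24 p53 targets higher, 2 to 8 stroma markers lower and 0 to 6 immediate early genes lower. The list medians then ran from 1.52 to 1.94 for p53 targets, -0.44 to -0.022 for granulosa markers and 1.74 to 2.59 for oocyte markers. Cells with more granulosa than oocyte markers gave 1006 genes higher and 5 oocyte-enriched genes lower. They also gave 1 stroma marker higher and 0 lower, 1 immediate early gene lower and list medians of 1.44, -0.35 and 0.66. The strictest set, chosen after seeing the data, gave 1232 higher, 1312 lower, and 143 oocyte-enriched genes higher and 6 lower. It also gave 3 stroma markers higher and 1 lower, and medians of 1.35, -0.39 and 0.96. Calls from cell medians alone gave 1623 higher, 1669 lower, 2 oocyte-enriched genes lower, 8 stroma markers and 9 immediate early genes lower, with medians of 1.30, 0.00 and 2.08. With cells weighted equally the p53 target list median log2 ratio was 1.74, the granulosa marker list median log2 ratio was -0.20 and the oocyte marker list median log2 ratio was 2.004, and no filter on low genes gave 1.74, -0.19 and 1.98. The granulosa and oocyte marker medians were -0.12 and 2.05 with edgeR's factors, -0.12 and 2.06 with those of DESeq2, -0.19 and 1.98 at 1 CPM, and -0.19 and 2.0002 at 20 CPM. An oocyte-enriched limit of 5 times gave 227 higher and 2 lower, and a limit of 20 times gave 33 higher. Single ratios changed sign in the cells with more granulosa than oocyte markers for Cep63 (0.0082), Cpb2 (-0.14), Ggct (-0.13), Ddb2 (-0.94), Nobox (-0.089), Tle6 (-0.55), Uchl1 (-0.20), Dcn (0.62), Tcf21 (1.30), Nr2f2 (0.89), Mfap4 (0.96), Casp2 (0.048) and Xbp1 (0.055). In the strictest set they did so for Cpb2 (-0.12), Cop1 (-0.46), Ddb2 (-2.03), Nobox (-0.11), Tle6 (-0.66), Uchl1 (-0.037), Dcn (0.38), Tcf21 (0.33), Nr2f2 (1.18), Mfap4 (0.70), Aldh1a2 (-0.997), Casp2 (0.19), Casp8 (-0.49) and Xbp1 (0.17), and without control cell 3 for Atf3 (0.033, beside -2.56 without doxorubicin cell 6, the ends of its range). Except that these sets hold fewer cells, the cause of these changes was not tested. With 1 sample per group and no animal named, the spread between animals is unknown, and genes seen in a few cells rest on few libraries.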
